A study of Homo sapiens with 2 samples.

Results

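The genes described here encode the cytosolic translation elongation factors *EEF1A1*, *EEF1A2*, *EEF1B2*, *EEF1D*, *EEF1G*, and *EEF2*, together with *TPT1*, *PABPC1*, and *EIF4A2*, which are not elongation factors but are read with them as messengers of the translation machinery. They were chosen by name, 9 of the 33538 genes listed in both tables, with their shares of UMIs in DAC- and mock-treated cells and their correlation over cells already known, so that both are given as a description and without a test. HCT116, a human colon cancer cell line, was mock-treated or treated with 0.5 μM of decitabine (DAC), a cytidine analog that traps DNA methyltransferases, on days 1 and 3. The medium was replaced by one without DAC on day 5, and the cells were harvested on day 7. From each condition 1 library of single cells was made, in which transcript molecules were counted by unique molecular identifiers (UMIs) near their poly(A) tails. With 1 library per condition, an effect of DAC and a difference between the cultures or library preparations cannot be told apart.

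Elongation is the step of protein synthesis in which amino acids are added to the growing chain. The product of *EEF1A1* or of its paralog *EEF1A2* carries aminoacyl-tRNA to the ribosome as a complex with GTP, the products of *EEF1B2* and *EEF1D* reload it with GTP and are held by that of *EEF1G*, and the product of *EEF2* moves the ribosome along the messenger. *TPT1* encodes an abundant protein that binds these factors, *PABPC1* the main cytoplasmic poly(A)-binding protein, and *EIF4A2* a helicase of the initiation complex. Many of these messengers, like those of ribosomal proteins, begin with a cytosine and an unbroken run of pyrimidines at the cap, the terminal oligopyrimidine (TOP) motif, through which the mTOR pathway and the RNA-binding protein LARP1 regulate their translation and stability. *EEF1A2* is known as the form of muscle and neurons.

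The start of the messenger is shown first, because it is the feature by which such genes are commonly grouped. RefSeq promoters (GRCh38.p14) were given for 6 of the 9 genes and not for *EEF1A2*, *EEF1D*, and *PABPC1*. The motif was searched on the transcribed strand as a C at the annotated first base followed by at least 4 bases that are each C or T, which 4.07% of the 35116 promoters held. It was present at a listed start of 5 of the 6 genes, and of 5.14% of all 27305 genes in the table and 7.54% of the 9751 with 200 UMIs or more. The 9 genes were chosen as TOP translation factors, so the choice itself bears on this contrast, and nothing is read from it. Below, 10 bases before and 20 bases from the annotated start are given from the transcribed strand, and capitals mark the pyrimidine run that begins at the start.
EEF1A1 (chr6:73521013-73521042, minus strand): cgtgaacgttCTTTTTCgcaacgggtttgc
EEF1B2 (chr2:206159885-206159914, plus strand): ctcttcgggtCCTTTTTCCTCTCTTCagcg
EEF2 (chr19:3985444-3985473, minus strand): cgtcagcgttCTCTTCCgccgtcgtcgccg
TPT1 (chr13:45341164-45341193, minus strand): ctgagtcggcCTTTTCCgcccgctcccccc
EIF4A2 (chr3:186783567-186783596, plus strand): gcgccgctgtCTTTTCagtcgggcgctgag
EEF1G (chr11:62573872-62573901, minus strand): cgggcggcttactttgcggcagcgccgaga
The run was 7 bases in *EEF1A1*, *EEF2*, and *TPT1*, 6 bases in *EIF4A2*, and 16 bases in *EEF1B2*. For *EEF1B2* the table also lists a start further upstream, at position 206159609, which does not hold the motif. These letters describe the annotated start and do not show which start HCT116 cells use. Observed over expected CpG in the 300-base promoters ranged from 0.849 in *EEF1G* to 1.36 in *EEF2*, above the median of all promoters, 0.579.

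From mock-treated cells 1783 barcodes with 49911689 UMIs were deposited, and from DAC-treated cells 1751 barcodes with 59046165 UMIs. Genes of the mitochondrial genome took 19.8% of the UMIs of the mock-treated library and 22.2% of those of the DAC-treated library, and over 50% of the UMIs in 311 mock-treated and 319 DAC-treated cells. Of 7 colon epithelial markers, all had UMIs in both libraries, and over the 6 with 200 UMIs or more the median log2 ratio was -0.02, from -1.67 for *CLDN4* to 1.08 for *KRT18*. The 10 markers of immune, stromal, endothelial, and erythroid cells had 557 UMIs in the mock-treated library, where 6 were at 0, and 1464 in the DAC-treated library, where none was, and *COL1A1* accounted for 533 and 1112 of these. Their part in the results was not tested. Both libraries shared 12 barcodes. Levels are given in CPM, the UMIs of a gene relative to all UMIs of the library, where 10000 CPM is 1% of the library. Since a molecule is counted once at its end, CPM is not divided by transcript length.

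Together, the 9 genes took 1.91% of all UMIs of mock-treated and 0.997% of those of DAC-treated cells, a 1.92-fold lower share (log2 ratio -0.94, 95% interval -0.94 to -0.94 for counting error only). Without *EEF1A1* the shares were 0.966% and 0.659%, a log2 ratio of -0.55. All genes were not centred on 0 in this scaling. Over the 12170 genes with 200 UMIs or more in both libraries together, the median log2 ratio was 0.22, with 7655 genes above 0 and 4515 below. Relative to that median, the 9 genes together stood at -1.16. Of the 8 genes that reached 200 UMIs, all but *EEF1G*, 3 were lower in DAC-treated cells by 1.5-fold or more, *EEF1A1*, *TPT1*, and *EEF2*, and none was higher by that much. Under median-of-ratios scaling, which lowers every log2 ratio by 0.24, 7 of the 8 were lower by 1.5-fold or more, as were 21.3% of all genes, while 18.8% were higher. On the CPM scale, 13.7% of the 12170 genes were lower and 29.0% higher by 1.5-fold or more. *EEF1A1* alone was lower by 2-fold or more, as were 6.33% of all genes. Since the genes were chosen on this comparison, nothing is read from these shares.

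**Figure D1:**
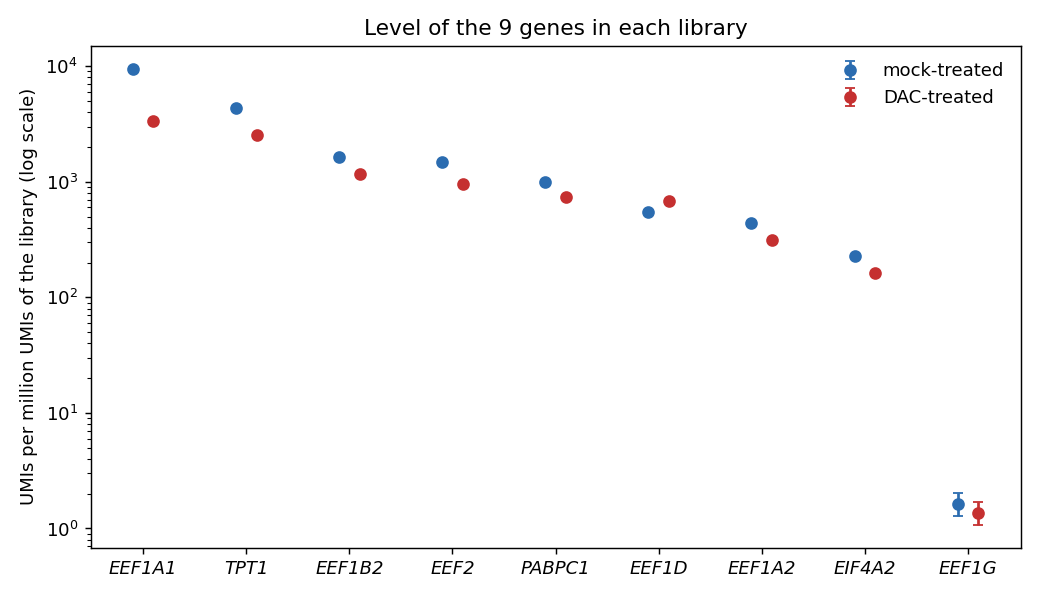
CPM (log axis) for the 9 genes in mock-treated (blue) and DAC-treated (red) cells, with exact Poisson 95% intervals that are smaller than the points except for *EEF1G*. *EEF1D* is the gene whose red point lies above its blue one, 678.1 against 542.6 CPM.

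*EEF1A1* (ENSG00000156508, chromosome 6 of hg38, from 73489308 to 73525587, minus strand) had 472826 UMIs in the mock-treated library, or 9473 CPM (95% interval 9446 to 9500), and 199812 UMIs in the DAC-treated library, or 3384 CPM (3369 to 3399). Its level was thus 2.80-fold lower in DAC-treated cells, a log2 ratio of -1.49 (-1.49 to -1.48). Outside the mitochondrial genome it was the gene with the 4th highest UMI count in mock-treated cells and the 15th in DAC-treated cells. Of the 1127 genes with 100 CPM or more in mock-treated cells, 38 had a lower ratio. That filter uses the library in which *EEF1A1* is high, and the gene was chosen on this ratio. Nothing is therefore read from its rank. The gene made up 49.5% of the UMIs of the 9 genes in the mock-treated and 33.9% in the DAC-treated library. GENCODE release 44 names 49 pseudogenes after it, and reads that match such copies could not be told apart from the counts.

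Its paralog *EEF1A2* (ENSG00000101210, chromosome 20, from 63488013 to 63499239, minus strand) had 437.9 CPM (432.1 to 443.7) in the mock-treated library and 315.4 CPM (310.8 to 319.9) in the DAC-treated one, a log2 ratio of -0.47 (-0.50 to -0.45). Both forms were thus lower in DAC-treated cells, *EEF1A1* by more. Of the UMIs of the pair, *EEF1A2* accounted for 4.42% in the mock-treated library (95% interval 4.36 to 4.48%) and for 8.52% in the DAC-treated one (8.41 to 8.64%). At least 1 UMI of *EEF1A2* was found in 83.5% of mock-treated cells (81.6 to 85.2%) and in 80.3% of DAC-treated cells (78.4 to 82.1%). With every cell thinned to 10000 UMIs of all genes the shares were 95.3% of 1388 cells and 85.1% of 1293 cells, after 395 and 458 shallower cells were left out. No cell type without the gene is present in a culture of 1 line, so a background of free RNA could not be measured. If all cells had taken an even share of their UMIs from *EEF1A2*, 142.2 mock-treated and 261.9 DAC-treated cells would have none, and 295 and 345 had none. Such an excess was not particular to *EEF1A2*. In the mock-treated library 144 cells had no *EEF1B2* against 52.4 by an even share, and 235 had no *EIF4A2* against 210.4. Mock-treated cells with over 50% mitochondrial UMIs had *EEF1A2* at 96.7 CPM, against 454.5 CPM in those with 10 to 20%. The part of such cells in the excess was not tested.

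The subunits that reload EEF1A differed from each other. *EEF1B2* (ENSG00000114942, chromosome 2, from 206159585 to 206162928, plus strand) had 1647 CPM in the mock-treated and 1168 CPM in the DAC-treated library, a log2 ratio of -0.50 (-0.51 to -0.48). *EEF1D* (ENSG00000104529, chromosome 8, from 143579697 to 143599541, minus strand) had 542.6 CPM in the mock-treated and 678.1 CPM in the DAC-treated library, a log2 ratio of 0.32 (0.30 to 0.34). *EEF1D* was the only one of the 9 genes with a higher level in DAC-treated cells, by 0.10 more than the median gene. With median-of-ratios scaling its value was 0.08. Of the UMIs of *EEF1B2* and *EEF1D* together, *EEF1D* took 24.8% in the mock-treated and 36.7% in the DAC-treated library.

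*EEF1G* (ENSG00000254772, chromosome 11, from 62559596 to 62574086, minus strand), the scaffold of this complex, had 81 UMIs in the mock-treated library (1.62 CPM) and 80 UMIs in the DAC-treated one (1.35 CPM), a log2 ratio of -0.26 with an interval of -0.72 to 0.20 that includes 0. A difference was not detectable at this depth. Of its 2639 exonic bases, 99.7% are also annotated as exons of a longer gene on the same strand, AP002990.1 (from 62559603 to 62591531), which had 5 and 13 UMIs. Counts of overlapping genes are uncertain, so the level of *EEF1G* is not compared with those of the other subunits. For no other of the 9 genes did a counted gene on the same strand share exonic bases.

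*EEF2* (ENSG00000167658, chromosome 19, from 3976056 to 3985463, minus strand), the translocase, had 1467 CPM in the mock-treated and 956.0 CPM in the DAC-treated library, 1.53-fold lower (log2 ratio -0.62, -0.63 to -0.60). It lay just past 1.5-fold, and at -0.48 for cells with 20% or less mitochondrial UMIs. *TPT1* (ENSG00000133112, chromosome 13, from 45333471 to 45341284, minus strand) was next to *EEF1A1* in level in both libraries, with 4344 CPM in the mock-treated and 2563 CPM in the DAC-treated library, 1.69-fold lower (log2 ratio -0.76, -0.77 to -0.75). *PABPC1* (ENSG00000070756, chromosome 8, from 100685816 to 100722809, minus strand) had 989.7 and 744.7 CPM, a log2 ratio of -0.41 (-0.43 to -0.39). *EIF4A2* (ENSG00000156976, chromosome 3, from 186783205 to 186789897, plus strand) had 225.6 and 161.4 CPM, a log2 ratio of -0.48 (-0.52 to -0.44).

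The close relatives of the last pair did not share these values. *PABPC4*, a second cytoplasmic poly(A)-binding protein, had a log2 ratio of 0.43 (0.39 to 0.48), and its share of the UMIs of *PABPC1* and *PABPC4* was 12.6% in the mock-treated and 20.5% in the DAC-treated library. *EIF4A1*, the paralogous helicase, had a log2 ratio of 0.05 (0.02 to 0.09), and the share of *EIF4A2* in their UMIs was 48.8% in the mock-treated and 39.7% in the DAC-treated library. Under median-of-ratios scaling, the value of *EIF4A1* lies below 0. In order of level, the 8 genes other than *EEF1G* stood alike in both libraries, from *EEF1A1* through *TPT1*, *EEF1B2*, *EEF2*, *PABPC1*, *EEF1D*, and *EEF1A2* to *EIF4A2*, and the counting intervals of no neighbours overlapped. The spread between cultures is not known for any of them.

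The genes were then followed in single cells. To compare cells of unequal depth, 10000 UMIs outside the mitochondrial genome were drawn from each cell that had as many, 1283 mock-treated and 1122 DAC-treated cells, which left out 500 and 629 cells. A mock-treated cell had a median of 123 UMIs of *EEF1A1*, with a 5th percentile of 79 and a 95th of 165. In DAC-treated cells the median was 42, with a 5th percentile of 21 and a 95th of 79. The 95th percentile of one library was thus the 5th of the other, and 94.8% of DAC-treated cells lay below the 5th percentile of mock-treated cells. None of these thinned cells was without *EEF1A1*, with a lowest value of 17 UMIs in mock-treated and 8 UMIs in DAC-treated cells.

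For the other genes the cells of both libraries overlapped more. The median of *TPT1* was 56 UMIs in mock-treated and 32 in DAC-treated cells, and 70.3% of DAC-treated cells lay below the 5th percentile of mock-treated cells. This share was 29.9% for *EEF1B2*, with medians of 20 and 15, and 24.2% for *EEF2*, with medians of 18 and 12. *PABPC1* had medians of 12 and 9, with 22.5% of DAC-treated cells below the 5th percentile, and *EEF1D* of 7 and 8, with 2.58%. *EEF1A2* had medians of 5 and 3 and *EIF4A2* of 3 and 2, and at that level single UMIs set the values. Without thinning, a UMI of *EIF4A2* was found in 86.8% of mock-treated and 80.1% of DAC-treated cells.

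**Figure D2:**
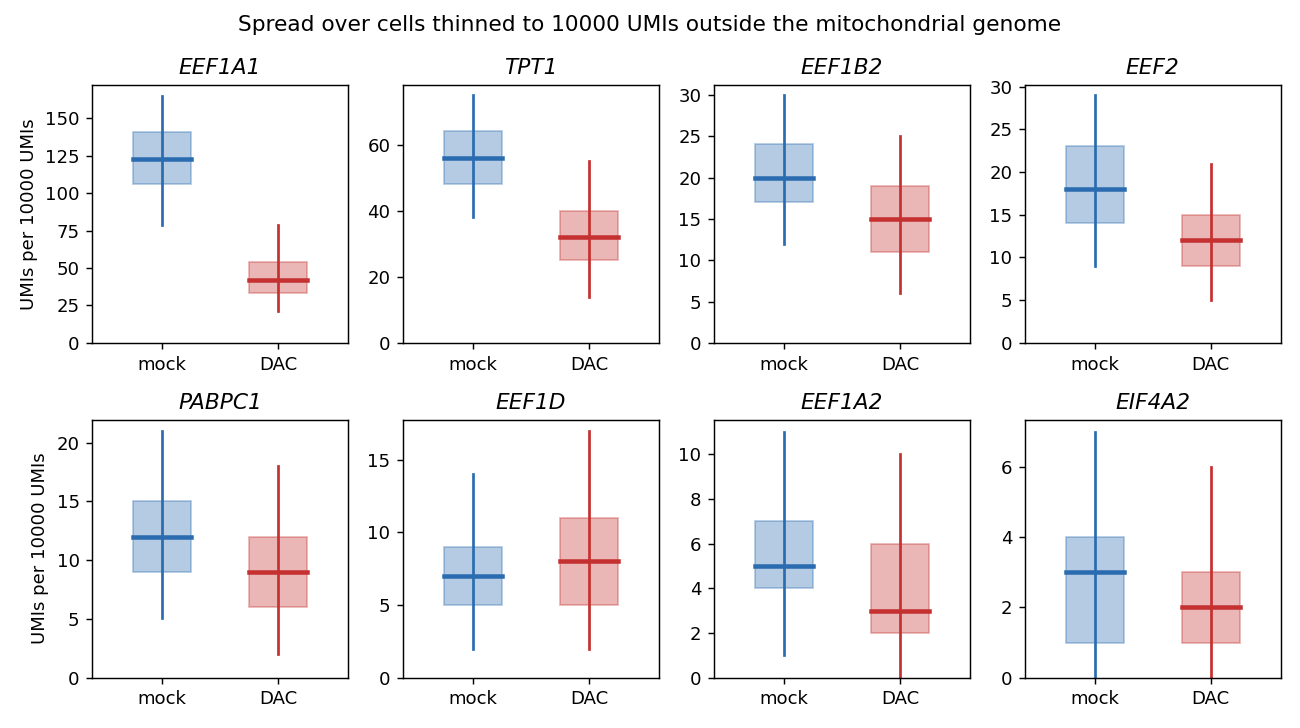
UMIs of 8 genes per 10000 UMIs outside the mitochondrial genome, over 1283 mock-treated (blue) and 1122 DAC-treated (red) cells. Thick lines are medians, boxes quartiles, and thin lines the 5th to 95th percentiles. For *EEF1A1* the thin lines of the libraries meet at 79 UMIs, and for *EEF1D* the boxes share most of their range.

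Spread between cells is given as the squared CV (SD over mean) after the part due to Poisson sampling, 1 over the mean, was taken off. All 8 genes other than *EEF1G* had the larger value in the DAC-treated library. For *EEF1A1* it was 0.0385 in mock-treated and 0.145 in DAC-treated cells, and for *TPT1* 0.0312 and 0.118. For *EIF4A2*, the most variable of the 8 genes in both libraries, it was 0.160 and 0.574, and for *EEF1A2* 0.0819 and 0.366. The libraries were closest, as a ratio, for *EEF2*, with 0.0582 and 0.0941, and *EEF1D*, with 0.106 and 0.200. Other genes also had larger values in the DAC-treated library. Over 1231 genes that averaged at least 1 UMI per thinned cell in each library, the median was 0.0856 in mock-treated and 0.183 in DAC-treated cells, and over 75 ribosomal protein genes 0.0316 and 0.0957.

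Correlations over cells were computed on log2(UMIs + 1) of the same thinned cells, and are a description of cells that share a library. Over the 36 pairs of the 9 genes the median r was 0.09 in mock-treated and 0.04 in DAC-treated cells, against 0.01 in both over all pairs of the 1231 genes. Without *EEF1G*, whose counts are too few for a correlation, the median of 28 pairs was 0.12 and 0.08, with 26 and 21 pairs above 0. Over all pairs of the 1231 genes, which were not matched to the 9 in level, the 95th percentile was 0.10 and 0.14. The median of all pairs also lay above 0, so nothing is read from the counts above 0. Ribosomal protein genes were closer to each other, with a median r of 0.36 in mock-treated and 0.43 in DAC-treated cells. In mock-treated cells the highest values were those of *EEF1A1* with *EEF2*, 0.43, and with *TPT1*, 0.40. In DAC-treated cells these pairs had 0.21 and 0.38, and *EEF1B2* with *TPT1*, at 0.31, came after the latter. *EEF1A1* and *PABPC1* had an r of 0.30 in the mock-treated and -0.0038 in the DAC-treated library, while *EEF1B2* and *TPT1* had 0.12 in the former. *EIF4A2* was near 0 with most partners, and its r with *EEF1D* was 0.08 in mock-treated and -0.14 in DAC-treated cells.

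**Figure D3:**
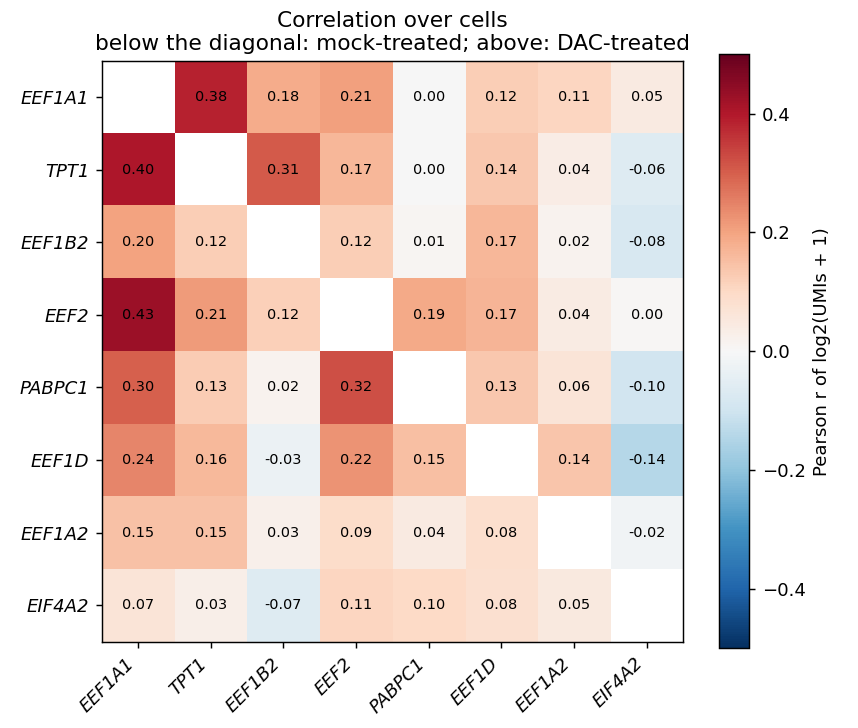
Pearson r over cells between 8 genes, for 1283 mock-treated cells below the diagonal and 1122 DAC-treated cells above it. The darkest cells are *EEF1A1* with *EEF2* in mock-treated cells, 0.43, and *EEF1A1* with *TPT1* in both libraries, 0.40 and 0.38.

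The genes whose cells most resembled the sum of the 9 genes were those of ribosomal proteins. Of 1223 other genes ranked by the lower r of both libraries, the first 5 included *RPL13A*, *RPL7*, *RPS6*, and *RPS3*, with lower values of 0.59, 0.57, 0.55, and 0.54, and the first 20 were ribosomal protein genes without exception. The sum of the 9 genes had an r of 0.76 with the sum of 77 ribosomal protein genes in mock-treated cells and of 0.64 in DAC-treated cells. The abundant genes weigh most in this sum. Singly, *EEF1A1* had 0.70 in mock-treated and 0.40 in DAC-treated cells, and *TPT1* 0.44 and 0.61, while in DAC-treated cells *PABPC1* had 0.11, *EEF1A2* 0.05, and *EIF4A2* -0.15. With the sum of 52 G2/M genes, which mark cells about to divide, its r was -0.48 in mock-treated and -0.06 in DAC-treated cells, and with 40 S-phase genes -0.38 and -0.10. The level of these genes also differed between the libraries, since the median log2 ratio was 0.86 over the G2/M genes and 1.01 over the 39 S-phase genes with 200 UMIs or more. Within DAC-treated cells *PABPC1*, *EEF1D*, and *EEF2* were positively related to the G2/M sum, with r of 0.17, 0.19, and 0.11, and negatively in mock-treated cells, with -0.22, -0.13, and -0.27. With log2 of the UMIs of a cell, these genes had r of 0.13, 0.11, and 0.16 in DAC-treated cells and -0.09, -0.09, and -0.03 in mock-treated cells. With its mitochondrial share, the values were -0.14, -0.05, and -0.21 in DAC-treated cells and 0.07, 0.16, and 0.09 in mock-treated cells. The part of the cell cycle in the difference between the libraries was not tested.

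The share of mitochondrial UMIs moved with the result. Among UMIs outside the mitochondrial genome, *EEF1A1* had a log2 ratio of -1.33 in cells with up to 10% mitochondrial UMIs, of -1.44 in cells with 10 to 20%, and of -1.49 in cells with 20 to 50%. The first of these classes holds 70 mock-treated and 252 DAC-treated cells with medians of 2211 and 1868 UMIs, and *EIF4A2* was above 0 in it, at 0.11. In cells with over 50% mitochondrial UMIs, which had a median of 7889 UMIs in the mock-treated and 11117 UMIs in the DAC-treated library, the ratio was -0.45. In these cells the 9 genes together had 7633 CPM among UMIs outside the mitochondrial genome in the mock-treated and 7052 CPM in the DAC-treated library, a log2 ratio of -0.11, against 23954 and 12987 CPM in cells with 10 to 20%. *EEF1D*, *EEF1A2*, and *PABPC1* were above 0 there, with 0.83, 0.32, and 0.09. The cells with over 50% mitochondrial UMIs gave 2127 and 2680 UMIs of *EEF1A1*, few of its total, and the ratio was -1.42 when all cells with over 20% were left out. When the cells of each library were split by depth into 3 classes of like size, the log2 ratio of *EEF1A1* in all UMIs was -1.60 in the shallowest, -1.58 in the middle, and -1.47 in the deepest class. Other genes moved more between these classes. *EEF2* had -1.03, -0.77, and -0.56, the last of which is less than 1.5-fold, and *TPT1* had -1.03, -0.97, and -0.68. *EIF4A2* had 0.01, -0.48, and -0.54, and *EEF1D* 0.13, 0.07, and 0.44. The shallowest classes were unlike, with a median of 7361 UMIs and 54.9% mitochondrial UMIs in the mock-treated and of 2175 UMIs and 20.5% in the DAC-treated library. The part of RNA quality was not tested.

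**Figure D4:**
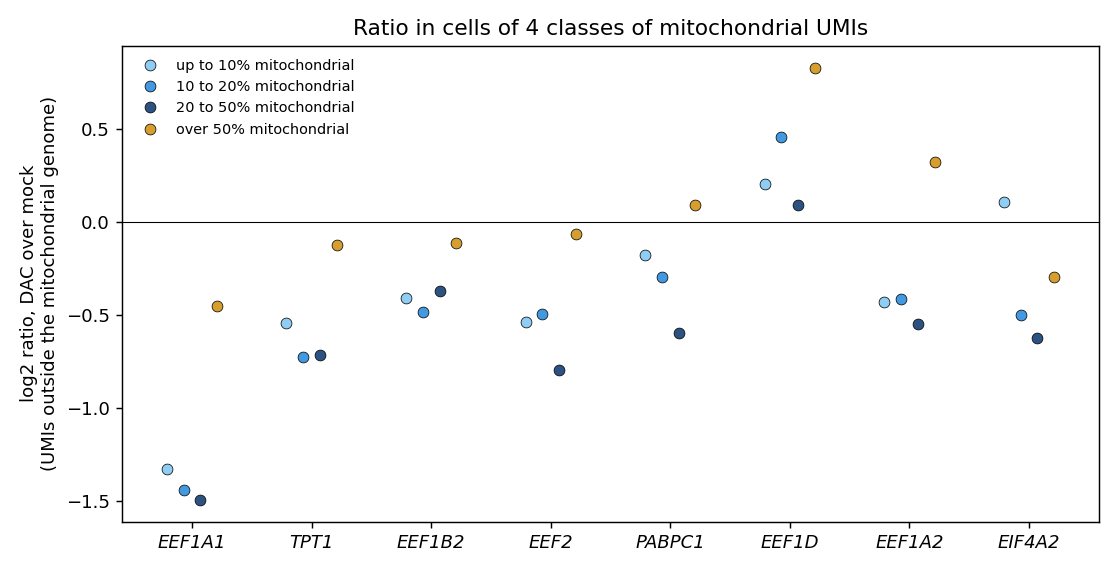
Log2 ratio of DAC-treated over mock-treated cells among UMIs outside the mitochondrial genome, for 8 genes in cells of 4 classes of mitochondrial UMIs. For *EEF1A1* the 3 classes up to 50% lie between -1.33 and -1.49, and the class over 50% (yellow) lies at -0.45.

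Other parts of the translation machinery were described from lists by the same ratio, on the CPM scale. Median-of-ratios scaling would lower each value by 0.24, so values between 0 and 0.24 would then lie below 0. Of 77 ribosomal protein genes, 75 were below 0 and 44 lower by 1.5-fold or more, with a median of -0.63. Their share of all UMIs was 23.6% in mock-treated and 15.2% in DAC-treated cells. The lowest ratios were those of *RPL3*, -1.28, and *RPL31*, -1.13, and the highest those of *RPS26*, 0.29, and *RPL35*, 0.02. Initiation factors, which assemble the ribosome at the start codon, lay near all genes in these counts. Of 38 genes, 5 were lower and 11 higher by 1.5-fold or more, where 13.7% and 29.0% of all genes were, and the median of 0.27 was close to the 0.22 of all genes. *EIF4B*, a cofactor of the EIF4A helicase, was at -1.07 and *EIF3L*, a subunit of the EIF3 scaffold, at -0.88. *EIF5*, which triggers GTP hydrolysis at the start codon, was at 1.05 and *EIF2B1*, a subunit of the exchange factor of EIF2, at 1.07.

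The same ratios were then set beside the motif at the start. Of the initiation factors with a TOP motif at the annotated start, 6 of 7 were below 0, with a median of -0.34, and the exception was *EIF3K* at 0.34. Without it, 2 of 26 were below 0, *EIF1* at -0.36 and *EIF4G3* at -0.71, with a median of 0.46. These 3 exceptions were named after their values were seen. The other 5 initiation factors had no promoter entry, and 4 of them were below 0. Of all 9751 genes with 200 UMIs or more and an entry, 36.3% were below 0. Under median-of-ratios scaling the counts below 0 were 6 of 7 with the motif and 9 of 26 without it, and 50.5% of all such genes. Among ribosomal protein genes the medians were -0.59 for 46 genes with the motif and -0.77 for 17 without it. Over the same 9751 genes, the median was 0.02 for the 735 with the motif and 0.25 for the 9016 without it. When the ribosomal protein genes and the genes described here were left out, it was 0.07 for 684 genes with the motif and 0.25 for 8999 without it. Of the 684 genes, 18.1% were lower and 20.8% higher by 1.5-fold or more, against 12.3% and 29.7% of the 8999. Among those with 100 CPM or more in the mock-treated library, a filter on the library in which the lower genes are high, 19.6% of 112 genes with the motif were lower and 7.14% higher by 1.5-fold or more, against 14.8% and 23.4% of 756 without it, with medians of -0.08 and 0.21.

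**Figure D5:**
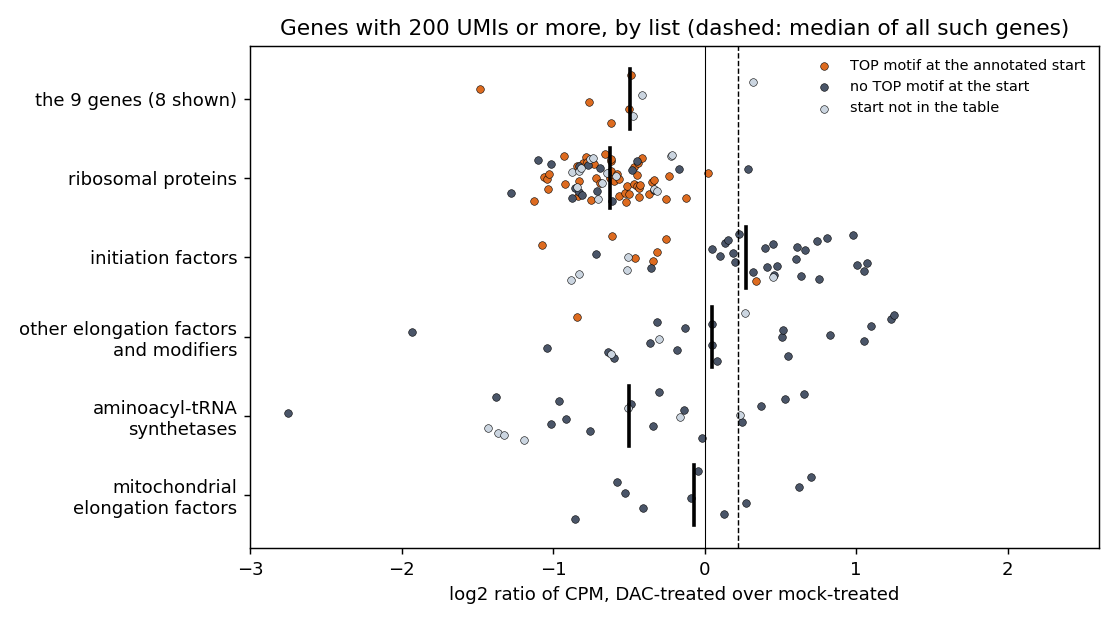
Log2 ratio of CPM, DAC-treated over mock-treated, for each gene with 200 UMIs or more in 6 lists, coloured by the TOP motif at the annotated start. Short bars are list medians and the dashed line is the median of all such genes, 0.22. In the initiation factors the genes with the motif (orange) lie left of 0 but for 1 of 7.

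Other elongation factors and their modifying enzymes had a median of 0.05, with 6 of 23 genes lower and 5 higher by 1.5-fold or more. *GTPBP2*, a ribosome rescue GTPase, was at -1.93, while *DPH3*, which acts in the diphthamide modification of EEF2, had 36.6 CPM in the mock-treated and 87.3 CPM in the DAC-treated library. *DHPS*, the first enzyme of hypusine synthesis on EIF5A, was at -1.04, and *EIF5A2*, the minor paralog of *EIF5A*, at 1.23. *EEF1E1*, a scaffold of the synthetase complex related to the EEF1 subunits, was at -0.18, and *EEF2K*, the kinase that inhibits EEF2, at -0.31. Of 20 listed regulators of TOP messengers, 19 had 200 UMIs or more, with a median of 0.17. *LARP1* had 77.8 CPM in mock-treated and 74.5 CPM in DAC-treated cells, with a log2 ratio of -0.06 and an interval from -0.12 that includes 0. *EIF4EBP1*, which blocks the cap-binding factor when mTOR is inactive, was at -1.06, and its paralog *EIF4EBP2* at 0.99. *TIA1*, an RNA-binding protein of stress granules, was at -0.43 and *RHEB*, the activator of mTOR, at 0.83.

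Aminoacyl-tRNA synthetases make the substrate of EEF1A. Their list of 22 genes also holds *AIMP1* and *AIMP2*, which are not synthetases. It had a median of -0.50, with 10 genes lower and 1 higher by 1.5-fold or more. *AARS* was at -2.75 and *GARS* at -1.43, while *FARSA* was at 0.53 and *HARS* at 0.65. In single cells the sum of these genes had an r of -0.34 with the sum of the 9 genes in mock-treated cells and of -0.01 in DAC-treated cells. Mitochondrial translation factors, which serve the separate ribosomes of that organelle, had a median of -0.07 over 10 genes, with 1 lower and 2 higher by 1.5-fold or more. *MRRF* was at -0.86 and *MTIF2* at -0.58, and *MTRF1L* was at 0.62 and *TSFM* at 0.70. Housekeeping genes had a median of 0.23 over 14 genes, close to that of all genes.

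A list of 19 other messengers counted among the TOP messengers, which includes EIF3 subunits and *EIF4B* of the list of initiation factors, had a median of -0.47, with 7 lower and 1 higher by 1.5-fold or more. By the search used here 11 of them held the motif at the RefSeq start, 3 did not, and 5 had no entry. *SNHG8*, a host of small nucleolar RNAs, had 338.3 CPM in mock-treated and 89.1 CPM in DAC-treated cells, a log2 ratio of -1.93. *VIM*, the intermediate filament vimentin, had 7.43 and 484.2 CPM, a log2 ratio of 6.03. Both are among the 3 genes without the motif at that start. Release and recycling factors, which end translation, had a median of 0.26, with 1 of 7 lower and none higher by 1.5-fold or more. *EIF2D* was at -0.90 and *ABCE1*, which splits the ribosome, at 0.09, while *GSPT1*, the release factor GTPase, was at 0.39 and *MCTS1* at 0.51. Of 15 poly(A)-binding proteins and partners, 12 had 200 UMIs or more, with a median of -0.02, and 3 were lower and none higher by 1.5-fold or more. *PABPC1L*, a paralog of *PABPC1* known from oocytes, was at -1.66. *CNOT8*, a deadenylase, was at -0.03, and *CNOT6*, another, at 0.24.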

How the data were processed

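Single-cell libraries of mock- and DAC-treated HCT116 cells were analyzed, 1 per condition. Reads were aligned by the authors to hg38 with Cell Ranger 3.0.2, and the deposited values are raw counts of UMIs for each gene in each cell. The annotation release and the filter on cells are not given in the sources used here. All deposited cells were used, and doublets were not called, since doublets of 1 cell line carry no marker.

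UMIs were summed over cells and divided by the total of the library (CPM). Intervals at the 95% level are exact Poisson (levels), Clopper-Pearson (shares), and exact conditional binomial (ratios), and cover counting error only. Since cells are not replicates, no test was made. Ratios were described for genes with 200 UMIs or more over both libraries, with 1.5-fold as the limit of size. Named genes were the 9 genes, the 2 highest and 2 lowest ratios among genes with 1000 UMIs or more of each list discussed, the 5 genes most correlated with the sum of the 9 genes (1 is not reported here), and the paralogs and regulators *EIF4A1*, *PABPC4*, *EEF1E1*, *EEF2K*, and *LARP1*. The genes and lists were chosen with earlier results of these data known. For correlations and CVs, cells were thinned to 10000 UMIs outside the mitochondrial genome. Median-of-ratios scaling, other denominators, filters on cells, depths, and limits were tried as alternatives. Positions were taken from GENCODE release 44 (hg38), and sequences of starts from RefSeq (GRCh38.p14), matched by symbol for 17853 genes. Scripts ran under Python 3.11.15 (pandas 2.3.3, scipy 1.17.1, matplotlib 3.10.9, numpy 2.4.6) and were tested on simulated data.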

Additional observations from a re-analysis of the deposited data

How the results depend on the processing

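The summed share of the 9 genes, a log2 ratio of -0.94 as reported, was -1.18 under median-of-ratios scaling and between -0.95 and -0.86 under the other alternatives, with -0.90 for UMIs outside the mitochondrial genome as denominator, -0.86 for cells with 20% or less mitochondrial UMIs, -0.93 for cells with 10000 UMIs or more and 50% or less, -0.95 without the 5% of cells with the most UMIs, -0.89 for the mean of per-cell CPM, and -0.93 with cells thinned to 1000 UMIs. Without the cells whose barcode is in both libraries, an alternative added after the data were seen, it was -0.94. The number of genes lower by the limit, 3 at 1.5-fold, was 7 under median-of-ratios scaling, also 7 at a limit of 20% lower, which 22.1% of all genes passed, and 1 at 2-fold. It was 2 with UMIs outside the mitochondrial genome as denominator and for cells with 20% or less mitochondrial UMIs, where *EEF2* was at -0.57 and -0.48, and 4 with cells thinned to 1000 UMIs, where the added gene is *EEF1G* at -1.91, which the count of 3 leaves out for its few UMIs, so that 3 of the same 8 genes were lower. No gene changed its side of 0 under the 8 alternatives, and *EEF1A1* ranged from -1.72 to -1.42. *EEF1G* ranged from -1.91 to -0.21 with few UMIs.

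The median correlation, 0.09 in mock-treated and 0.04 in DAC-treated cells as reported, was 0.365 and 0.282 with cells thinned to 10000 UMIs of all genes. That setting takes in the mitochondrial share of a cell and also other cells, 1388 and 1293 against 1283 and 1122. Which of these moved the value was not tested. Thinned to 2000 UMIs outside the mitochondrial genome, the median correlation was 0.09 and 0.02, and for cells with 20% or less mitochondrial UMIs 0.07 and 0.06. With 3 UMIs or more, *EEF1A2* was present in 74.3% of mock-treated and 65.5% of DAC-treated cells, and with cells thinned to 10000 UMIs in 95.3% and 85.1%. Median-of-ratios scaling gave medians of 0.0348 for initiation factors, -0.74 for the list of aminoacyl-tRNA synthetases, and -0.86 for ribosomal protein genes. No paired analysis was possible because each condition has 1 library. The few UMIs of *EEF1G* give it the widest counting interval of the 9 genes.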
